A study of Mus musculus with 2 samples.

Results

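Secretory-gene cells are epithelial cells of the mouse thymic medulla that carried UMIs (unique molecular identifiers, 1 per captured RNA molecule) of several genes known from airway and gut secretory cells. A cell was a member if at least 3 of Ltf, Wfdc18, Bpifa1, Muc5b, Tff2, Spdef and Agr2 were detected, if their summed UMIs reached 10 per 10000 UMIs of the cell, if it held no UMI of the leukocyte gene Ptprc and fewer than 2 of the microfold-cell gene Gp2, and if the tuft-cell genes Trpm5, Dclk1 and Alox5ap summed to under 10 per 10000. The rule was met by 156 of 8208 cells in the library labelled fl/fl and by 26 of 5099 cells in the library labelled +/fl, which makes 182 of 13307 cells in all. The members were thus chosen by measured levels of these genes, so those levels are a description here and support nothing.

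The series sets medullary thymic epithelial cells (mTECs) of mice with a floxed allele of Ikaros, the zinc-finger transcription factor encoded by Ikzf1, beside each other. The library labelled Foxn1-Cre(+) Ikarosfl/fl has both alleles floxed and the library labelled Foxn1-Cre(+) Ikaros+/fl has 1 floxed and 1 wild-type allele, so both carry the Cre, which the Foxn1 promoter drives in thymic epithelium. The names under which the matrices were submitted swap the genotypes, so every direction below holds between libraries as labelled. There is 1 library per genotype, so no difference has a replicate check, no test was made, and every 95% interval covers counting error only. The sources used here give neither the age nor the number of mice, nor the deleted exons.

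Among the secretory-gene cells, Ikzf1 had 32.2 CPM (UMIs per 1000000 UMIs of the cell group; 25.8 to 39.7, exact Poisson interval) in the library labelled fl/fl and 68.1 CPM (48.9 to 92.4) in the library labelled +/fl. Other Epcam-positive cells without Ptprc, 6605 and 3762 in number, had 37.0 and 63.1 CPM. In both cell groups Ikzf1 was thus at the lower level where the label is fl/fl, and 3' tags outside the deleted part would not show a deletion. Sex differed as well. Xist had 0 UMIs in the members labelled fl/fl and 975 CPM in the members labelled +/fl, the Y-linked Ddx3y had 61.4 CPM and 0 UMIs, and the effects of genotype and of sex cannot be told apart. The members had medians of 14642 UMIs labelled fl/fl and 19466 labelled +/fl, and the other Epcam-positive cells had 9362 and 11711, so the members were the deeper cells in both libraries. The 2 libraries shared 11 cell barcodes, of which 1 belonged to a member labelled fl/fl and 1 to a member labelled +/fl.

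The medulla of the thymus displays genes of many peripheral tissues to developing T cells, which removes clones that react to self. Much of this display depends on Aire, a chromatin regulator that switches on tissue-restricted genes in single mTECs. After the Aire stage, some mTECs take on programs that resemble cells of other organs, among them tuft, microfold, keratinocyte and secretory cells. Secretory epithelium elsewhere lines the airway and gut, where goblet cells build mucus from gel-forming mucins and club cells release protective proteins and detoxify foreign compounds.

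The rule genes have different roles. Ltf encodes lactoferrin, an iron-binding antimicrobial protein that is also stored in neutrophil granules, and Bpifa1 encodes a secreted airway surface protein. Wfdc18 encodes a small secreted whey acidic protein domain protein. Muc5b is a gel-forming mucin, Tff2 a trefoil peptide packed with mucus, Agr2 a disulphide isomerase of the endoplasmic reticulum (ER) needed to fold mucins, and Spdef the transcription factor known for goblet cell maturation. By Ensembl identifier in GENCODE M21 (GRCm38), Ltf lies at chromosome 9, 111019271 to 111042767, Bpifa1 at chromosome 2, 154142880 to 154149219, Wfdc18 at chromosome 11, 83709015 to 83711348, and Muc5b at chromosome 7, 141839070 to 141873084. Tff2 (chromosome 17, 31141049 to 31144282) and Spdef (chromosome 17, 27714352 to 27728955) share a chromosome, and Agr2 lies at chromosome 12, 35992907 to 36004087.

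Wfdc18, Bpifa1 and Ltf were the most often detected rule genes, but all 3 were found together in only 65 of 156 members labelled fl/fl and 9 of 26 labelled +/fl. The other 91 and 17 members needed at least 1 of Tff2, Agr2, Spdef and Muc5b to reach 3 genes. Wfdc18 was detected in 150 of 156 members labelled fl/fl and 23 of 26 labelled +/fl, Bpifa1 in 114 and 23, and Ltf in 103 and 12. Tff2 followed with 58 and 9 members, Agr2 with 41 and 11, and Spdef with 34 and 11. The mucin Muc5b was found in only 19 members labelled fl/fl and 3 labelled +/fl. The most frequent pair was Wfdc18 with Bpifa1, found together in 111 and 20 members, and Muc5b with Agr2 was found together in 9 and 2. Exactly 3 rule genes were detected in 115 members labelled fl/fl and 18 labelled +/fl, and 6 in 0 and 2. The goblet genes Muc5b and Spdef, which the label of secretory cells would call for, were undetected in most members, so the cells are called by their rule here.

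**Figure D1:**
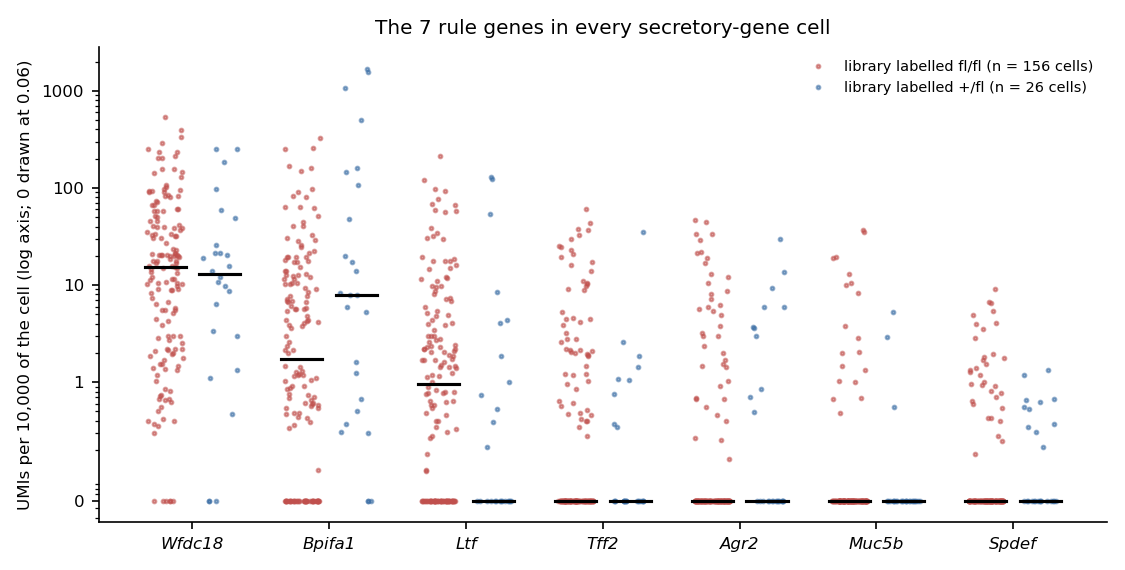
Each point is 1 secretory-gene cell, 156 in the library labelled fl/fl and 26 in the library labelled +/fl, the vertical axis gives UMIs of the gene per 10,000 UMIs of the cell on a log scale with 0 drawn at 0.06, and black bars are medians. Wfdc18 and Bpifa1 have medians above 0 in both libraries, and the medians of Tff2, Agr2, Muc5b and Spdef lie at 0 in both.

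Levels differed widely between members. The summed level had a lowest value of 10.4, a median of 38.5 and a highest value of 542 per 10000 in the library labelled fl/fl, and 11.4, 44.3 and 1819 in the library labelled +/fl. Just inside the threshold, 10 members labelled fl/fl and 2 labelled +/fl lay under 12 per 10000, and just outside it 20 and 2 cells with 3 genes lay at 8 or more, the nearest at 9.97 and 9.70. By the gene with most UMIs in the cell, 77 members labelled fl/fl were led by Wfdc18, 36 by Bpifa1, 17 by Tff2, 14 by Ltf, 7 by Agr2 and 4 by Muc5b, with 1 tie. Of the members labelled +/fl, 15 were led by Wfdc18, 9 by Bpifa1 and 2 by Agr2.

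How much of each rule gene's RNA the members held differed between genes and libraries. The members labelled fl/fl held 5.30% of all Wfdc18 UMIs, 14.3% of Bpifa1, 21.4% of Ltf, 22.3% of Tff2, 15.1% of Agr2 and 25.8% of Muc5b. Those labelled +/fl held 1.49% of Wfdc18, 59.9% of Bpifa1, 70.4% of Ltf, 11.4% of Tff2, 56.4% of Agr2 and 8.62% of Muc5b. The members thus held a minority of the UMIs of all of these genes labelled fl/fl, but a majority of Bpifa1, Ltf and Agr2 labelled +/fl. For each of these 3 genes the top 4 members labelled +/fl held most of the members' UMIs, namely 89.0%, 95.7% and 81.8%. Members were 4.29%, 12.2% and 35.5% of the cells with a UMI of these genes in that library. Wfdc18 stood apart, since 88.4% and 95.6% of its UMIs were in cells with fewer than 3 rule genes. It was detected in 71.9% of the other Epcam-positive cells labelled fl/fl and 73.9% of those labelled +/fl. After thinning each cell to 2000 UMIs, Wfdc18 was found in 75.2% of members labelled fl/fl, 44.7% of other Epcam-positive cells and 19.2% of leukocytes (Ptprc present, Epcam absent), at median depths of 14642, 9362 and 4414 UMIs. In the library labelled +/fl these shares were 68.0%, 47.4% and 18.0%, at 19466, 11711 and 6667 UMIs. A Wfdc18 UMI alone therefore does not set a member apart.

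The Gp2 limit removed 67 cells labelled fl/fl and 6 labelled +/fl that passed every earlier step, against 156 and 26 that stayed. The removed cells labelled fl/fl had 257 CPM of Muc5b, against 54.8 CPM in the members, and 1502 CPM of Agr2, against 221 CPM. They also had 13130 CPM of Wfdc2 and 22673 CPM of the antimicrobial lectin Reg3g, against 4168 and 8276 CPM in the members. Muc5b was detected in 24 of these 67 cells. The 6 removed cells labelled +/fl also had more Wfdc2 than the members, 11334 against 5572 CPM, and more Reg3g, 9292 against 3008 CPM. Tff2 (457 against 53.2 CPM), Spdef (92.5 against 24.9), Agr2 (420 against 329) and Muc5b (808 against 24.9) were higher too, each mostly from 1 cell. They had less of other genes, with 55.5 against 1086 CPM of Ltf, 3165 against 18182 CPM of Bpifa1, 2851 against 3284 CPM of Wfdc18 and 173 against 508 CPM of Cyp2f2. Labelled fl/fl, the removed cells had more of these, with 1219 against 496, 4682 against 1586, 6453 against 3782 and 567 against 324 CPM. For these genes the libraries differed, and the top 4 members labelled +/fl held 95.7% of the members' Ltf and 89.0% of their Bpifa1. Of the 6 removed cells labelled +/fl, 1 held all 131 Muc5b UMIs of that step. Over the whole library, 60.6% of Muc5b UMIs labelled fl/fl and 75.3% labelled +/fl were in cells removed at the Gp2 limit. The tuft limit removed 6 cells labelled fl/fl and 11 labelled +/fl, and the Ptprc limit 17 and 16.

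**Figure D2:**
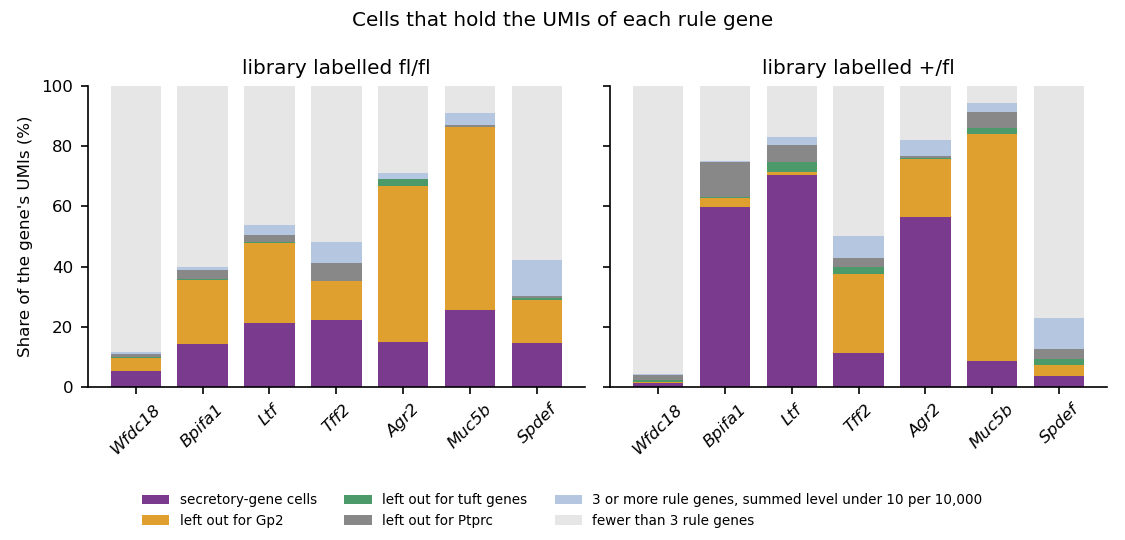
Bars divide the UMIs of each rule gene (100%) among the cells that hold them, with the library labelled fl/fl left and the library labelled +/fl right. Muc5b is held mostly by cells left out for Gp2 (60.6% and 75.3%), and Wfdc18 by cells with fewer than 3 rule genes (88.4% and 95.6%).

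The first comparison set the members beside the other Epcam-positive cells within each library. Genes outside the rule that stood higher in both libraries included several known from airway and mucosal epithelium. Wfdc2, a secreted protease inhibitor of airway epithelium, had 4168 CPM (4091 to 4246) in members labelled fl/fl, against 706 CPM (700.4 to 712) in the other cells of that library. In the library labelled +/fl it had 5572 CPM (5385 to 5764) in members, against 296 CPM (291 to 300.2) in the other cells. Its log2 ratios were 2.55 and 4.21, and after thinning it was found in 61.4% and 60.0% of members, against 29.2% and 22.4% of the other cells. Genes were compared if they reached 50 CPM in either group and 20 UMIs over both. Of 3053 genes that passed in both libraries, 65 (2.13%) were at least 2-fold higher in members in both, and 20 (0.655%) at least 2-fold lower. Within the library labelled fl/fl alone 3.85% of 3429 genes were higher and 1.08% lower, and within the library labelled +/fl 6.11% and 4.03% of 3550.

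Detoxifying enzymes were among the genes with the largest ratios. Gsto1, a glutathione transferase, had 432 CPM in members against 59.6 CPM in other cells labelled fl/fl, and 633 CPM against 14.8 CPM labelled +/fl. Cyp2f2, the cytochrome P450 typical of club cells, had 324 against 59.4 CPM and 508 against 32.1 CPM. Gsta4, another glutathione transferase, had 575 against 119 CPM and 641 against 46.0 CPM. All 3 were detected in most members labelled +/fl, with 18, 16 and 17 of 26, and in 65, 63 and 90 of 156 labelled fl/fl.

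Secreted defence and surface proteins formed a second group. Reg3g had 8276 against 1810 CPM in the library labelled fl/fl and 3008 against 355 CPM in the library labelled +/fl, and it was found in 134 of 156 and 16 of 26 members. Sftpd, the surfactant lectin that binds microbial sugars, had 285 against 61.2 CPM and 351 against 14.0 CPM. The chemokine Cxcl17, known from mucosal epithelium, had 105 against 19.9 CPM and 233 against 4.45 CPM. The protease inhibitors Serpinb11 (log2 ratios of 2.25 and 4.28), Serpinb2 (1.72 and 3.26) and Spink5 (1.74 and 3.19) stood in the same direction. The neutrophil-attracting chemokines Cxcl5 (2.05 and 4.22) and Cxcl3 (1.69 and 3.14), which are neighbours on chromosome 5, did so too.

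Ratios of a few named genes in the library labelled +/fl rested on 1 cell. The trefoil peptide Tff3 had log2 ratios of 2.15 and 2.35, but 97.4% of its UMIs in members labelled +/fl were in 1 cell, and without the top cell of each library and class the ratio there was -1.52. Spink1, a trypsin inhibitor, had 75.2% of its UMIs in 1 of 5 cells, and Psca, a surface protein of prostate and stomach epithelium, 76.3% in 1 of 4. The other named genes were Krt6a, a keratin of stressed epithelium, the matrix protein gene Ecm1, the GABA receptor subunit gene Gabrp, Pdzk1ip1 and Gm94. Their log2 ratios were 1.71 to 2.67 in the library labelled fl/fl and 2.20 to 3.94 in the library labelled +/fl.

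**Figure D3:**
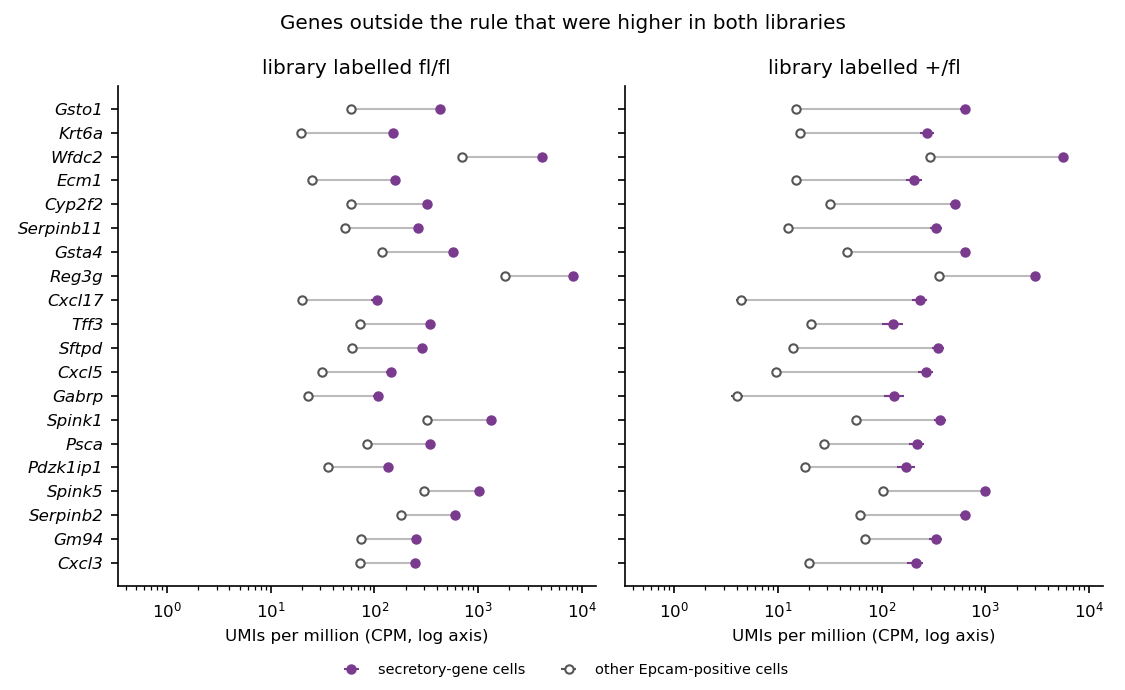
CPM (log axis) of the 20 named genes outside the rule in secretory-gene cells (filled) and other Epcam-positive cells (open), with the library labelled fl/fl left and the library labelled +/fl right; bars are exact 95% Poisson intervals, mostly smaller than the points. Wfdc2 and Reg3g have the highest levels, and every filled point lies right of its open point.

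The gene lists gave the same picture by counts. Of 13 club and airway genes, 7 passed in both libraries and 5 were at least 2-fold higher in both, namely Cyp2f2, Gsta4, Sftpd, Gabrp and Scgb1a1, the main secretory protein of club cells. The median log2 ratio of that list was 2.04 over 9 genes labelled fl/fl and 3.73 over 8 labelled +/fl, beside -0.0073 and -0.085 over all genes compared. All 13 genes summed without the filter had medians per cell of 15.8 per 10000 in members and 1.36 in other cells labelled fl/fl. Labelled +/fl these medians were 27.1 and 0.519. Scgb1a1 itself had 97.4% of its UMIs in 1 of 3 positive members labelled +/fl, against 20.8% in the top one of 44 labelled fl/fl. Of 22 mucosal defence genes, 11 passed in both and 4 were higher, namely Wfdc2, Reg3g, Lcn2, which binds bacterial siderophores, and Pigr, which carries IgA across epithelium. Of 18 ion and fluid transport genes, 4 passed in both and 3 were higher, namely the water channel Aqp5, the chloride importer Slc12a2 and the pump regulator Fxyd3.

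Few mucus genes outside the rule passed in both libraries. Of 13 other mucins in the files, 3 passed in both and 1 was higher, the small mucin-like Mucl1, in 21 and 3 members. Muc5ac, the second airway gel-forming mucin, had 55.1 against 10.9 CPM labelled fl/fl and 18.3 against 2.61 CPM labelled +/fl, in 20 and 3 members. Clca1, a mucus-processing protease, had 194 against 21.3 CPM labelled fl/fl, with 49.9% of the UMIs in 1 of 26 cells, and 9.97 against 24.0 CPM labelled +/fl. Of 20 mucus assembly genes 2 passed in both, and Tff3 alone was higher.

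The secretory machinery of the cell did not stand apart in the same way. Of 30 genes for ER translocation and folding, 25 passed in both libraries and 0 were at least 2-fold higher or lower in both, with medians of 0.11 labelled fl/fl and -0.042 labelled +/fl. The chaperone gene Hspa5 had 1319 against 1218 CPM and 751 against 962 CPM, and the translocon gene Sec61b had 536 against 468 CPM and 326 against 361 CPM. Of 16 genes for ER to Golgi transport, 11 passed in both and 0 were 2-fold apart in both, with medians of 0.11 and -0.10. Of 21 transcription regulators of secretory cells, 7 passed in both and again 0 were 2-fold apart in both, with medians of 0.41 and -0.033. Foxa1, a forkhead factor of airway and gut epithelium, was under the filter in both libraries. It had 45.5 against 21.8 CPM labelled fl/fl and 49.8 against 4.58 CPM labelled +/fl.

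**Figure D4:**
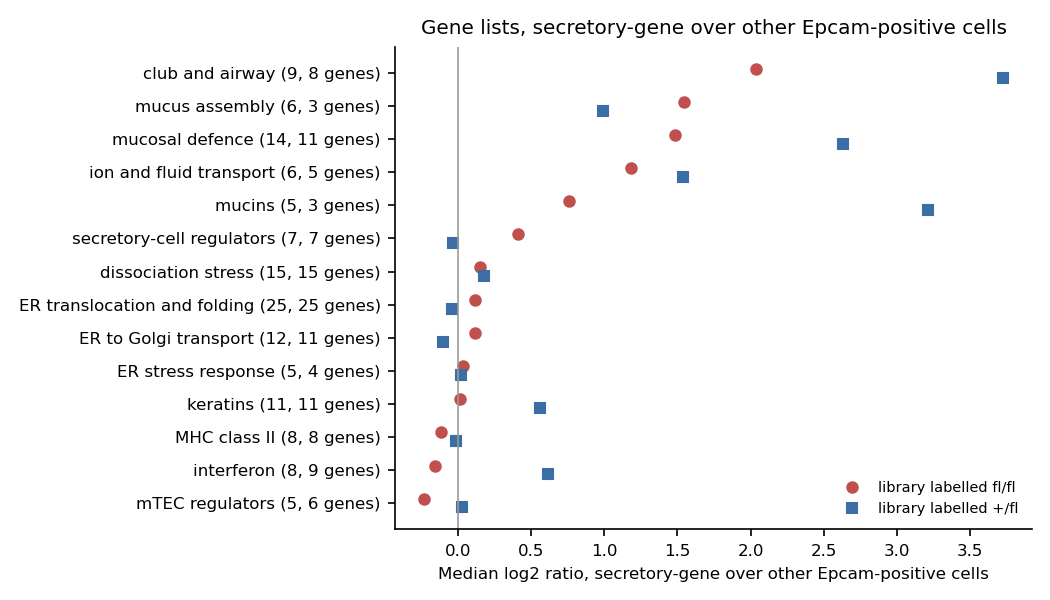
Points give the median log2 ratio, secretory-gene over other Epcam-positive cells, for each gene list with at least 3 genes passing in each library (circles, labelled fl/fl; squares, labelled +/fl); numbers after each name are the genes passing in each. Club and airway genes have the highest medians (2.04 and 3.73), while both ER lists lie near 0. A gene low in the other cells passes only where it is high in members, which raises a median.

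MHC class II genes lay at like levels in members and other cells. Of 6 genes for co-stimulation of T cells, 3 passed labelled fl/fl and 2 labelled +/fl. All of these were lower in members, with medians of -0.50 and -0.33. Of 9 MHC class II genes, which present antigen to T cells, 8 passed in both and 0 were 2-fold apart in both. The invariant chain gene Cd74 had 11467 against 12445 CPM labelled fl/fl and 7132 against 7383 CPM labelled +/fl. Aire was found in 111 of 156 members labelled fl/fl (71.2%, 63.4 to 78.1) and in 16 of 26 labelled +/fl (61.5%, 40.6 to 79.8). After thinning these shares were 26.8% and 12%, against 31.9% and 16.9% of the other Epcam-positive cells. Leukocytes, set only by Ptprc present and Epcam absent, held an Aire UMI in 38.4% and 24.1% of cells. After thinning these shares were 19.2% (13.1 to 26.5) and 7.38% (3.43 to 13.5). Whether some cells of that class express Aire was not tested. The thinned intervals of members, 19.97 to 34.5 and 2.55 to 31.2, overlapped those of leukocytes. Detection therefore does not give the share of members that express Aire, and a lone Aire UMI cannot be told from free RNA. Summed over cells, Aire had 245 CPM (227 to 265) in members and 121 CPM (99.8 to 146) in leukocytes labelled fl/fl. Labelled +/fl it had 179 CPM (147 to 217) and 41.3 CPM (29.9 to 55.6), so its level was higher in members than in leukocytes in both libraries. The other Epcam-positive cells labelled fl/fl had 333 CPM (329 to 338) of Aire, above the members. Those labelled +/fl had 156 CPM (152 to 159), inside the interval of the members. The part of free RNA in these levels was not tested. Fezf2, a second regulator of self-antigen genes, had 402 against 368 CPM and 279 against 275 CPM.

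Of the 10 named genes that were lower in members, 5 belong to tuft cells, which the rule leaves out. These were Avil, Lrmp, Gnat3, Gng13 and Rgs13. When the other cells were held to the members' own limits on Gp2 and tuft genes, an alternative added after seeing the data, their log2 ratios lay between -0.52 and 0.39 labelled fl/fl and between -1.31 and -0.0025 labelled +/fl. The remaining 5 kept values of -4.17 to -1.35 there. These were Ccl21a, the chemokine of immature mTECs that draws thymocytes into the medulla, the smooth muscle gene Tagln, the matrix gene Mgp, the iron hormone gene Hamp and the prostaglandin dehydrogenase gene Hpgd. Ccl21a had 881 against 2621 CPM labelled fl/fl and 1563 against 4312 CPM labelled +/fl. The same alternative left 72 genes at least 2-fold higher and 14 lower in both libraries.

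Wfdc2 and Cyp2f2 had higher levels in members without an Aire UMI than in members with one, and other airway genes did not all do so. There were 45 such cells labelled fl/fl and 10 labelled +/fl. Wfdc2 had 11633 CPM in the cells without and 2638 CPM in the cells with Aire UMIs labelled fl/fl, and 15028 and 2209 CPM labelled +/fl. Cyp2f2 had 946 and 197 CPM labelled fl/fl, and 1203 and 261 CPM labelled +/fl. Scgb1a1 had 368 and 344 CPM labelled fl/fl, and 19.0 and 691 CPM labelled +/fl, where 1 cell held 97.4% of its UMIs. Sftpd had 265 and 289 CPM labelled fl/fl, and 1058 and 99.1 CPM labelled +/fl. The direction of these genes thus differed between genes and libraries. Cd74 was lower in the cells without Aire UMIs, with 4136 and 12969 CPM labelled fl/fl and 3926 and 8271 CPM labelled +/fl. The cells without Aire UMIs were shallower, with medians of 9221 and 17143 UMIs labelled fl/fl and 14973 and 20693 labelled +/fl. Split by Aire after thinning to equal depth, Wfdc2 had 4627 CPM in the 112 cells without and 3216 CPM in the 41 cells with Aire labelled fl/fl. In the library labelled +/fl the same split gave 6676 CPM in 22 cells without and 226 CPM in 3 cells with Aire. The order of Wfdc2 was the same at equal depth in both libraries, and the difference labelled fl/fl was smaller. Sftpd labelled fl/fl had 191 and 486 CPM in that split, the opposite order.

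Wfdc2 was higher in members with 50 or more summed rule-gene UMIs per 10000 than in those at 10 to 20, in both libraries. In the library labelled fl/fl, Wfdc2 had 2690 CPM in the 32 members at 10 to 20 per 10000, 2594 CPM in the 55 members at 20 to 50 and 6673 CPM in the 69 members at 50 or more. Labelled +/fl, these values were 216, 5389 and 9156 CPM in 4, 9 and 13 members. Other airway genes did not all follow this order. Cyp2f2 labelled fl/fl had 260 CPM, 255 CPM and 433 CPM, and Scgb1a1 labelled +/fl had 2036, 22.6 and 12.9 CPM. The share with Aire after thinning was 46.9%, 32.1% and 13.2% labelled fl/fl, and 50%, 11.1% and 0% labelled +/fl. The 0% is 0 of 12 thinned cells. At least 2 of the 13 airway genes were detected after thinning in 52.3% (44.1 to 60.4) of members labelled fl/fl and 60.0% (38.7 to 78.9) of members labelled +/fl, against 10.7% and 3.67% (3.08 to 4.33) of the other cells. The level bins are made from the values that chose the members, so they are a description, and cells of 1 library are not replicates.

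**Figure D5:**
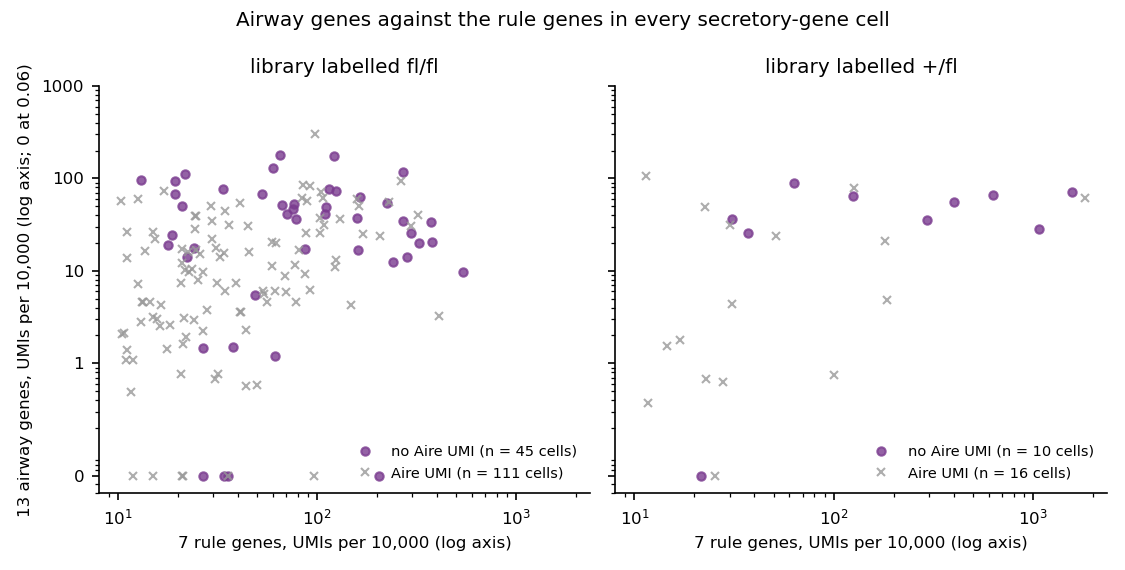
Each symbol is 1 secretory-gene cell, with the summed 7 rule genes on the horizontal and the summed 13 airway genes on the vertical axis (UMIs per 10,000 of the cell, log axes, 0 drawn at 0.06). Circles are cells without an Aire UMI (45 labelled fl/fl, 10 labelled +/fl) and crosses cells with one (111 and 16); most circles lie above 10 airway UMIs per 10,000 in both panels.

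Members led by different rule genes differed in the rest of the program. The 14 members labelled fl/fl that were led by Ltf had 15822 CPM of Wfdc2, 3323 CPM of Gsto1 and 1832 CPM of Scgb1a1. Those led by Wfdc18 had 3092, 184 and 296 CPM, and those led by Bpifa1 had 2595, 337 and 261 CPM. The 7 led by Agr2 had the most Reg3g, 38489 CPM, against 1014 CPM in the Ltf-led cells. Of the members labelled +/fl, the 9 led by Bpifa1 had 10483 CPM of Wfdc2 and the 15 led by Wfdc18 had 1685 CPM. The 4 members led by Muc5b had more Wfdc2 and Scgb1a1 than the Ltf-led cells, 29217 and 2282 CPM, and the median Scgb1a1 of single Ltf-led cells was 0. The median depth of the Ltf-led cells was 6379 UMIs, against 17128 in Wfdc18-led and 13106 in Bpifa1-led cells.

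Ltf and other granule genes are also made by neutrophils, whose marker list was therefore read in the members. Of 10 neutrophil genes, 1 was at 0 UMIs in the members of both libraries, the receptor gene Csf3r. The rule leaves out cells with Ptprc, so few leukocytes could be members. Labelled fl/fl, 4 of the genes passed the filter, 3 higher and 1 lower in members than in other Epcam-positive cells. Labelled +/fl, 1 passed and was lower. S100a8 had 428 CPM in members labelled fl/fl, against 389 CPM in the other Epcam-positive cells, and 24.9 against 119 CPM labelled +/fl. The summed list ranged from 0 to 240 per 10000 over members labelled fl/fl, with a median of 0.512, and from 0 to 5.99 over members labelled +/fl, with a median of 0. Camp and S100a9, 2 other genes of the list, were among the genes higher in members labelled fl/fl, and the part of neutrophil RNA in any result was not tested. Of 5 endothelial and 6 fibroblast genes, only Kdr and Pdgfra were at 0 in the members of both libraries. The summed endothelial list reached 1.48 per 10000 in members labelled fl/fl and 0.107 labelled +/fl. The fibroblast list reached 18.6 and 4.40, and the medians of both lists were 0.

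The second comparison was the share of secretory-gene cells by genotype as labelled. They made up 1.90% of cells (1.62 to 2.22, exact Clopper-Pearson interval) in the library labelled fl/fl and 0.510% (0.333 to 0.746) in the library labelled +/fl, a 3.73-fold difference. Tuft cells enter that ratio, because cells with 10 or more tuft UMIs per 10000 were 7.92% of Epcam-positive cells labelled fl/fl and 34.0% of those labelled +/fl. Of the Epcam-positive cells outside that tuft limit, members were 2.47% (2.10 to 2.89) labelled fl/fl and 1.0% (0.648 to 1.47) labelled +/fl, a 2.47-fold difference. Among such cells without an Aire UMI the shares were 1.78% and 0.746%, and among those with one 2.91% and 1.24%, 2.39-fold and 2.35-fold apart. Applied to cells thinned to 2000 UMIs, the rule found 61 of 7389 cells labelled fl/fl and 5 of 4771 labelled +/fl, a 7.88-fold difference that rests on 5 cells. The share was higher in the library labelled fl/fl under every one of the 12 alternatives to the rule that were run.

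The third comparison was the expression within the members by genotype as labelled. Of 3572 genes compared, 197 (5.52%) were at least 2-fold higher in the members labelled fl/fl and 139 (3.89%) at least 2-fold lower. Genes that the rule uses were not left out of these counts, unlike in the first comparison. Among them, Tff2 was higher (log2 ratio of 2.48), and Bpifa1 (-3.52) and Ltf (-1.12) were lower. The tuft genes Trpm5, Dclk1 and Alox5ap, which the rule limits, were lower too. They had 12.6, 28.1 and 5.18 CPM labelled fl/fl, and 79.7, 93.0 and 59.8 CPM labelled +/fl. The other Epcam-positive cells had 5.93% and 3.15% of 3524 genes past these limits, so the shares in the members lay near those in the rest of the epithelium. Without the top cell of each gene the counts in members were 316 and 78.

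Of the 10 named genes higher in the members labelled fl/fl, the one with the highest level there was Tff1, a trefoil peptide of stomach mucus that lies beside Tff2 and Tff3 on chromosome 17 (Tff3 at 31125306 to 31129646, Tff1 at 31161395 to 31165277). Tff1 had 828 CPM (794 to 863) in members labelled fl/fl, from 50 of 156 cells, and 6.64 CPM (1.81 to 17.0) in members labelled +/fl, from 2 of 26. The other Epcam-positive cells had 47.9 and 4.18 CPM, so it was higher in the library labelled fl/fl there too. Among members labelled fl/fl, 25 held both Tff1 and Tff2, 31 both Tff2 and Tff3, and 15 all 3. Among members labelled +/fl, 2 held Tff1 with Tff2, 3 held Tff2 with Tff3 and 0 held all 3. The rule uses Tff2, so its neighbours are not independent of how the members were chosen.

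Of the other 9 named genes higher in the library labelled fl/fl, 5 encode peptide hormones or their precursors. Pyy and Ppy, 2 neighbouring gut and pancreatic peptide genes on chromosome 11, had 406 and 135 CPM in members labelled fl/fl and 0 UMIs each in members labelled +/fl, where 3 UMIs would be 4.98 CPM. Iapp, the islet amyloid peptide, had 498 and 3.32 CPM, the tachykinin gene Tac2 had 227 and 1.66 CPM, and Pomc, the precursor of pituitary hormones, had 166 CPM and 0 UMIs. These 5 were also higher in the library labelled fl/fl in the other Epcam-positive cells, with log2 ratios of 1.07 to 2.33. Fabp9, Mt4, Camp and S100a9 completed the named genes in this direction. The cells behind them numbered 19 to 54 of 156 labelled fl/fl and 0 or 1 of 26 labelled +/fl.

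Genes higher in the library labelled +/fl often came from very few cells. Bpifa1 had 1586 CPM in members labelled fl/fl and 18182 CPM in members labelled +/fl, and 4 of the 26 cells held 89.0% of the UMIs labelled +/fl. At least 100 Bpifa1 UMIs per 10000 were reached by 6 of 156 members labelled fl/fl and 7 of 26 labelled +/fl, with medians of 1.72 and 7.90. Without the top cell of each library the levels were 1360 and 12607 CPM, in the same direction, though still from few cells labelled +/fl. Bpifa1 is a rule gene, so its levels in members are a description and support nothing. In the other Epcam-positive cells the order was the opposite, with 301 and 69.3 CPM. Apoc3, a liver apolipoprotein, had 41.8 and 945 CPM, and 98.4% of the UMIs labelled +/fl were in 1 cell. Without the top cells it had 31.7 and 15.4 CPM. Lce1d came from 1 cell in each library, Cryba2 had 96.6% and Ang2 86.0% of their UMIs labelled +/fl in 1 cell, and Krt4 had 75.7%. Upk1b, a bladder surface protein, had 8.88 and 146 CPM from 6 of 156 and 10 of 26 cells, and Trf, the iron carrier transferrin, had 82.2 and 698 CPM from 40 and 16 cells. Abi3bp had 14.8 and 154 CPM from 14 and 7 cells, and Xist completed the list.

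Within the members, the median of the airway list between the libraries lay near that of all genes. The club and airway list had a median log2 ratio of -0.22 over 10 genes in members, beside 0.011 over all genes there. In the other Epcam-positive cells it was 1.54 over 6 genes, beside -0.056 over all genes. Each cell group had its own filter, so the 2 list medians are not over the same genes. Wfdc2 had 4168 CPM labelled fl/fl and 5572 CPM labelled +/fl, Cyp2f2 had 324 and 508 CPM and Gsta4 had 575 and 641 CPM. Reg3g was 8276 and 3008 CPM, with 54.9% of the UMIs labelled +/fl in 1 cell, and 7441 and 1604 CPM without the top cells. The acute-phase genes Saa1 and Saa3 had 985 and 2097 CPM labelled fl/fl, from 76 and 87 cells, and 61.5 and 91.4 CPM labelled +/fl, from 2 and 4 cells. Both were also higher in the library labelled fl/fl in the other Epcam-positive cells, by 3.04 and 2.94 on the log2 scale. Saa1, Krt6a and Ang2 have near-identical relatives, so their counts are uncertain where reads could match more than 1 copy.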

How the data were processed

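Each deposited matrix holds whole UMI counts by gene and barcode, not normalized by the authors. Cell Ranger and Seurat are named in the submitters' processing notes, with no role stated, and 3.1.0 is the version string per the file headers. No genome build or annotation is named there; gene positions are those of GENCODE M21 (GRCm38). Libraries were grouped by the genotype in their labels. Cells with at least 500 genes, 1000 UMIs and at most 15% mitochondrial UMIs were kept, without removing doublets. Scrublet (scanpy 1.11.5) marked 0 and 1 cells by its own threshold, so removing the cells with the highest scores was an alternative only. It removed 539 of 8208 cells (6.57%) labelled fl/fl and 208 of 5099 (4.08%) labelled +/fl. Of the members it removed 19 of 156 (12.2%) and 0 of 26, so members labelled fl/fl had high scores more often than all cells there. The part of doublets among the members was not tested. The members, gene lists and alternatives were chosen with earlier results of these data known, and the lists are not independent evidence.

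UMIs were summed per library and cell group and scaled to CPM with Python 3.11.15, and ratios are log2 with 5 CPM added, which understates the change of low genes. The deposited counts gave 99871505 UMIs labelled fl/fl and 85260592 labelled +/fl over all barcodes, and 2702224 and 601970 in the members. With 1 library per genotype no test was fitted. edgeR 4.0.16 (R 4.3.3) gave TMM factors for an alternative scaling only. Ratios and Poisson intervals were checked on simulated Poisson counts, and the share intervals on simulated binomial counts. These counts hold no differences between cells, so the check does not cover genes whose UMIs come from few cells. Named genes are first the 20 highest by the smaller ratio of both libraries, among genes with 100 CPM in members of both. The 10 lowest were ranked by the larger ratio of both libraries, among genes with 100 CPM in the other Epcam-positive cells of both. Between libraries they are the 10 highest and 10 lowest with 100 CPM in either and 50 UMIs over both. List members were named as well. The sex-linked genes were added for the label check.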

Additional observations from a re-analysis of the deposited data

Results flagged for a closer look

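Each difference here was not tested, since there is 1 library per genotype. Between the libraries, 5 named genes went opposite ways in secretory-gene cells and in other Epcam-positive cells, by at least 1 on the log2 scale in each. Their log2 ratios, labelled fl/fl over labelled +/fl, were -1.10 in secretory-gene cells and 1.40 in other cells for Cxcl17, -4.48 and 1.0 for Krt4, -4.34 and 1.15 for Apoc3, -3.52 and 2.04 for Bpifa1, and -1.12 and 2.84 for Ltf. Bpifa1 and Ltf are rule genes.

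Between the cell groups, 6 named genes went opposite ways in the 2 libraries. Their log2 ratios, secretory-gene over other Epcam-positive cells, were 1.45 labelled fl/fl and -3.40 labelled +/fl for Pyy, 1.19 and -2.40 for Iapp, 1.26 and -2.80 for Tac2, 1.12 and -1.70 for Camp, 1.40 and -2.12 for Ppy, and -1.51 and 3.98 for Apoc3. Pyy and Ppy had 0 UMIs in secretory-gene cells labelled +/fl, so their ratios there depend on the 5 CPM added, and Apoc3 rests on 1 cell of that library.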

How the results depend on the processing

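No paired analysis was possible because there is 1 library per genotype, and no library could be left out. The rule without Wfdc18, the level of at least 50 per 10000, members without an Aire UMI, removal of each gene's top cell and the other cells held to the members' Gp2 and tuft limits were chosen after seeing the data. The 26 members labelled +/fl limit every comparison. The counts of genes past 2-fold changed with the choice of members and filter, and the cause was not tested.

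The share stayed higher in the library labelled fl/fl under every alternative to the rule, by 2.32-fold to 7.88-fold (2.98 on the log2 scale, by the rule on thinned cells). It was 2.50% labelled fl/fl at 5 per 10000 and 1.51% at 20. It was 8.43% labelled fl/fl and 3.63% labelled +/fl with at least 2 rule genes, 0.500% and 0.157% with at least 4, and 0.826% and 0.105% after thinning. It was 1.02% labelled fl/fl without Ltf. It was 0.426% and 0.157% without Wfdc18, 0.841% and 0.255% at 50 per 10000, and 0.548% and 0.196% without Aire UMIs.

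The 65 genes higher in members in both libraries became 131 without Wfdc18, 144 at 50 per 10000, 239 without Aire UMIs and 138 with no filter. The 20 lower became 12 with 2 rule genes, 36 with 4, 38 after thinning, 76 without Wfdc18, 67 at 50 per 10000, 216 without Aire UMIs, 33 by the mean over cells, 60 with no filter, 13 at 100 CPM and 50 UMIs and 35 without top cells. The 197 higher and 139 lower between libraries became 128 and 75 with 2 rule genes, 354 and 249 with 4, 407 and 277 after thinning, 482 and 248 without Wfdc18, 497 and 248 at 50 per 10000, and 454 and 280 without Aire UMIs. They became 1180 and 466 with no filter, 109 and 71 at 100 CPM and 50 UMIs, and 316 and 78 without top cells, and the lower ones 90 with 20 CPM added.

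Of 969 list medians under the alternatives, 1 reversed, that of ion and fluid transport labelled +/fl with 2 rule genes (-0.018). Of 1680 values of single genes, 26 reversed, and the cause was not tested. Between libraries these were Lce1d (0.14 at 20 and 0.26 at 50 per 10000), Cryba2 (0.99 at 20, 0.88 after thinning, 0.48 without Ltf, 0.86 without Wfdc18), Iapp (-0.31 with 2 rule genes), Ang2 (0.59 with 4), Abi3bp (0.59 after thinning) and Apoc3 (3.32 after thinning, 0.52 at 50 per 10000, 4.20 without Aire UMIs, 0.84 without top cells). Members over other cells, Tff3 labelled +/fl reversed with 4 rule genes (-1.62), after thinning (-0.23), without Wfdc18 (-1.50), without Aire UMIs (-2.45) and without top cells (-1.52). Psca labelled +/fl was -2.80 with 4 rule genes, -2.79 after thinning and -2.80 without Wfdc18. Gm94 was -0.24 labelled fl/fl and -1.74 labelled +/fl after thinning, and -1.09 and -2.43 without Wfdc18. Rgs13 labelled fl/fl was 0.39 with the other cells held to the members' limits.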
